A study of Rattus norvegicus with 62 samples.

Results

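Sarcomere and Z-disc genes of the rat heart were followed over 12 combinations of rosiglitazone dose and sampling time. The set is a fixed list of 41 genes for the thick filament, titin, the thin filament, the M-band, the Z-disc and their partners, and a probe set was taken as a member where the platform annotation gives it exactly 1 gene and that gene is on the list. On this array each probe set joins several short probes for 1 transcript. In all, 37 of the 41 genes had such a probe set, with 60 probe sets among the 31099 of the table, and 55 of the 60 passed a filter on low signal that kept 18625. Each of the 37 genes kept at least 1 probe set. Cardiac actin (Actc1) was read only by probe sets shared with smooth muscle actin, so the balance of skeletal to cardiac actin could not be formed, and Nebl, Xirp2 and Trim55 had no probe set of their own.

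Cardiac muscle came from male Wistar rats given vehicle, 10 mg/kg or 80 mg/kg of rosiglitazone by mouth each day for 14 days. Rosiglitazone is a glucose-lowering drug that activates the nuclear receptor PPAR gamma. The heart was cut lengthwise and kept in a stabilizing solution before RNA was prepared. Tissue was taken 6, 24, 168 or 336 h after the last dose, with 4, 6, 5 and 5 vehicle arrays at these times, 5, 5, 5 and 6 arrays at 10 mg/kg, and 5, 5, 6 and 5 at 80 mg/kg. All groups share the strain, the sex and the daily dosing by mouth, the labels give no age, and they leave unsaid whether the 62 samples are separate animals. The spread behind each p-value is that between these samples, which may be technical. Rats sampled at 336 h had lived longer since the last dose than those at 6 h, and age and time after dosing cannot be told apart.

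The sarcomere is the contractile unit of striated muscle, in which myosin thick filaments slide along actin thin filaments that are anchored at the Z-disc. Titin spans from the Z-disc to the M-band as a molecular spring, and its Z-disc end is capped by telethonin, the product of Tcap. Adult rat ventricle makes mainly the fast alpha myosin heavy chain of Myh6. The slow beta chain of Myh7 and the skeletal actin of Acta1 are fetal forms whose transcripts are known to rise under load. That of Myh7 is also known to rise under low thyroid hormone.

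The promoters of 3 genes are shown because these carry the time courses described below: Ttn and Lmod2 differed between times at each dose level, and Acta1 had the largest called fall in vehicle. The sequences run from 250 bases before to 50 bases after the annotated start, 5′ to 3′ on the gene's strand, and were taken from RefSeq on build GRCr8, which held entries for 30 of the 41 genes. Capitals mark motif matches found on either strand.

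Ttn promoter (chr3:82332061-82332360, minus strand): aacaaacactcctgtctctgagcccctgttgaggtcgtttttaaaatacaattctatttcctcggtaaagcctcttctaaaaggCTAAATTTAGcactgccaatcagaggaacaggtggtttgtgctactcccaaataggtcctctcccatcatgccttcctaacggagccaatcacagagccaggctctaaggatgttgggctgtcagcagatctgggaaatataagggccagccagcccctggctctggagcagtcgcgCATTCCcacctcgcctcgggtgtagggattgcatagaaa
Lmod2 promoter (chr4:54032724-54033023, plus strand): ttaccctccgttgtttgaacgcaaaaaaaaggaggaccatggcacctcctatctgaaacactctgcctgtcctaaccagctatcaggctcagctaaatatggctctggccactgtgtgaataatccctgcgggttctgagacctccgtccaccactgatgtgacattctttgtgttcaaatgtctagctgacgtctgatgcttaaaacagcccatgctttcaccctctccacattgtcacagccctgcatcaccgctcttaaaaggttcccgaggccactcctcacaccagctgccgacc
Acta1 promoter (chr19:68784145-68784444, minus strand): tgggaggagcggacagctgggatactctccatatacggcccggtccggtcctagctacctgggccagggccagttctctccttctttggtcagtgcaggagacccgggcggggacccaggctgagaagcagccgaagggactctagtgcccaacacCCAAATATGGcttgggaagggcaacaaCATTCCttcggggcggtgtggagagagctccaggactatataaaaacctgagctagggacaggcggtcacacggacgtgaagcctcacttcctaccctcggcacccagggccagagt

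The first capitals in Ttn are a MEF2 box, bound by the myocyte enhancer factors, and the second are the M-CAT element CATTCC, bound by TEAD factors. In Acta1 the first are a CArG box, the site of serum response factor, and the second again CATTCC. The Lmod2 window held none of the 4 motifs searched, which says only that these letters are not in it. Of all 33469 promoters given, 14.2% held CATTCC, 3.29% a MEF2 box, 1.64% a CArG box and 6.42% the E-box CACGTG, and matches could overlap. The 30 listed genes with an entry had 33 promoters. Counted by gene, with a match in any of its promoters, 9 held CATTCC, 6 a MEF2 box, 5 a CArG box and 2 the E-box. The shares above are by promoter, so the 2 counts are of unlike units.

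The arrays differed in tissue and RNA quality. Myl7, the light chain of atrial myosin, lay at 9.32 to 12.94 on 10 arrays, of which 1 was vehicle at 6 h, 4 were 10 mg/kg at 6 h, 2 were 80 mg/kg at 6 h and 3 were 80 mg/kg at 24 h, and at most at 8.71 on the others. Of 11 atrial markers 9 were measured, and their summed signal ran from 10800 to 33500 on those 10 arrays and up to 12200 on the rest. The beta-actin control differed by 1.36 to 2.12 between its 3′ and 5′ ends on 5 arrays, against at most 1.22 on the rest, and these were vehicle 6 h replicate 1, vehicle 24 h replicates 1 and 4, 10 mg/kg 24 h replicate 1 and 80 mg/kg 6 h replicate 1. The first principal components of all kept probe sets split the arrays into 3 clusters of 21, 20 and 21, and all 16 arrays of 336 h lay in the last, with 5 arrays of other times. The clusters also differed in another sign of RNA quality, the 3′ minus 5′ difference of the hexokinase control, which lay at 1.38 to 1.97 in the first, 2.09 to 6.08 in the second and 1.42 to 2.45 in the last. Cardiomyocyte markers were high on every array, with a summed signal between 82100 and 88700 over the 8 of 9 measured. Of the 9, 4 are also members (Actc1, Tnnt2, Tnni3 and Myh6). Tnnt2, Tnni3 and Myh6 read near the top of the range, so this sum is no independent check of tissue content. Of 11 fast skeletal muscle markers, 8 had no single-gene probe set that passed the filter. The summed signal of the other 3 ran from 3300 to 6620.

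All values below are log2 signals after quantile normalization, which gives all arrays the same distribution, and each difference is one of log2 group means with its standard error (SE). Each probe set has its own binding strength, so levels of different genes are not ranked. The members read high: their median level was 11.11 against 7.01 over all kept probe sets, and 16 of them were among the 100 highest signals. The highest signal of an array lay between 17787 and 21429, a narrow span near which a change in an abundant transcript is compressed. Within groups they varied less, with a median SD of 0.179 against 0.297.

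Few members were called with rosiglitazone. At 80 mg/kg against vehicle, limma called 0 of 55 at 6 h, 1 of 55 at 24 h (Tcap, higher), 0 of 55 at 168 h and 0 of 55 at 336 h at an adjusted p under 0.05, where 0.0537%, 0.140%, 0.0537% and 0.290% of all probe sets were called. At an unadjusted p under 0.05 there were 1, 9, 4 and 4 members, which is 1.82%, 16.4%, 7.27% and 7.27% of them, against 6.65%, 11.1%, 5.44% and 6.97% of all probe sets. At 10 mg/kg limma called 0 of 55 at each time, as it called 0 of all probe sets, with 1, 3, 0 and 5 members under an unadjusted p of 0.05, which is 1.82%, 5.45%, 0% and 9.09% of them against 6.42%, 5.84%, 3.86% and 3.63% of all. Between the doses, and with the times averaged at 80 mg/kg (0.478% of all called) or at 10 mg/kg (0.0107%), limma called 0 of 55, and 3 and 2 members (5.45% and 3.64%, against 9.54% and 4.77% of all) were under an unadjusted p of 0.05 in the averaged comparisons. For 80 against 10 mg/kg the share of all probe sets called was 0% at 6 h, 0.0107% at 24 h, 0.0376% at 168 h and 0.102% at 336 h, with 3, 1, 1 and 0 members (5.45%, 1.82%, 1.82% and 0%) under that unadjusted p against 3.68%, 3.74%, 4.73% and 3.59% of all. The effect of 80 mg/kg differed between the 4 times for 0 of 55 (0.0215% of all called) and that of 10 mg/kg for 0 of 55 (0% of all), with 6 and 2 (10.9% and 3.64%, against 7.30% and 4.70% of all) under an unadjusted p of 0.05. Median member differences for a dose against vehicle at a time ran from -0.022 to 0.05, beside medians over all probe sets from -0.022 to 0.01.

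More members were called between sampling times, as were more of all probe sets. In vehicle, limma called 2 members between 24 and 6 h (0.226% of all probe sets), 2 between 168 and 6 h (0.231%), 9 between 336 and 6 h (9.70%), 0 between 168 and 24 h (0% of all, with 13 members under an unadjusted p of 0.05, or 23.6% against 11.4% of all), 7 between 336 and 24 h (5.26%) and 1 between 336 and 168 h (4.55%). As shares of 55, these counts were 3.64%, 3.64%, 16.4%, 0%, 12.7% and 1.82%, the last below the share of all probe sets. A test over all 4 times called 9 members in vehicle (8.05% of all called), 5 at 10 mg/kg (7.17%) and 6 at 80 mg/kg (5.77%). Tcap, Lmod2 and Ttn were called in all 3 of these tests, and the vehicle count also held Acta1, Synpo2l, Smyd1 and 3 Ldb3 probe sets. The comparisons with vehicle at a time share the vehicle arrays. The 336 h counts in vehicle rested on single arrays in part: 336 against 6 h gave 4 without vehicle 6 h replicate 6, and 336 against 24 h gave 3 without vehicle 24 h replicate 1, vehicle 24 h replicate 5 or vehicle 336 h replicate 4, and 4 without vehicle 336 h replicates 2, 3 or 6. For 336 against 168 h the count was 2 without vehicle 168 h replicate 1 or vehicle 336 h replicate 3, and 4 without vehicle 168 h replicate 3. For 168 against 6 h it was 1 without vehicle 6 h replicates 1 or 6 and 0 without vehicle 168 h replicates 1 or 2, and the time count at 10 mg/kg was 3 without 10 mg/kg 6 h replicate 1 or 336 h replicates 2, 4 or 6. With the array cluster as a block, the counts were 1, 1 and 0 for 336 h against 6, 24 and 168 h. The cluster was found from the same arrays and holds all arrays of 336 h, so that cluster and late time can be told apart only through the 5 other arrays in it. On the deposited scale, without quantile normalization, limma called 0 members for 24, 168 and 336 h against 6 h, 1 for 336 against 24 h (the dimmest of the 4 tested Ldb3 probe sets) and 0 for 336 against 168 h, so that every other called member difference between 2 times in vehicle lost its call there.

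Markers of other cell types were also called in vehicle at 336 against 6 h. Of 7 smooth muscle markers Acta2 and Smtn were higher by 0.98 (adjusted p = 0.0254) and 0.76 (0.00942), of 7 fibroblast markers Pdgfra was lower (-0.40, 0.0108), of 6 leukocyte markers Cd74 was higher (0.32, 0.017), and of 3 measured of 5 red blood cell markers Hbb was lower (-0.34, 0.0472, limma). Their summed signals at 6 and 336 h were 1890 to 3360 and 2650 to 3250 for smooth muscle, 15300 to 18700 and 15200 to 18500 for fibroblasts, 4280 to 5650 and 5620 to 6570 for leukocytes, and 9200 to 12900 and 7550 to 9250 for red blood cells. At 336 against 24 h 3 of the 7 fibroblast markers (Pdgfra, Col3a1 and Postn) and 2 of the 3 red blood cell markers (Hbb and Alas2) were lower. The part of these cells in the member differences was not tested.

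**Figure D1:**
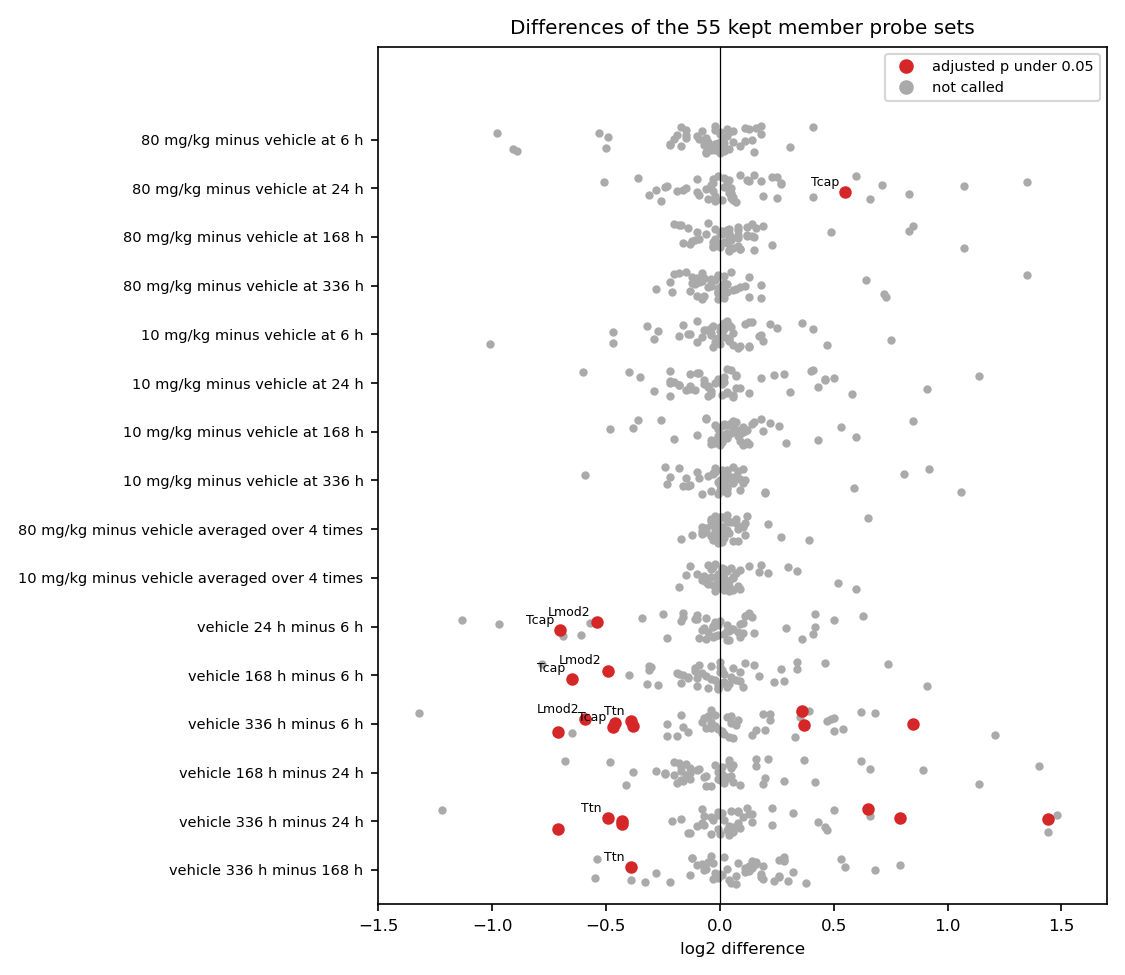
Log2 differences (x axis) of the 55 kept member probe sets for each comparison (y axis), 1 point per probe set, red where limma's adjusted p was under 0.05, with Tcap, Lmod2 and Ttn named. The dose comparisons show 1 red point, Tcap at 24 h and 80 mg/kg (0.55), and the vehicle comparisons with 336 h show most of the others.

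Titin fell at 336 h in vehicle, and its arrays of both doses overlapped those of vehicle then. In vehicle its level was 13.09, 13.08, 12.96 and 13.02 at 6 h, from 12.94 to 13.26 with a median of 13.16 over the 6 arrays of 24 h, and 12.99, 12.98, 13.00, 13.08 and 13.12 at 168 h. At 336 h the 5 vehicle arrays were at 12.71, 12.59, 12.56, 12.70 and 12.65. No vehicle array of 336 h reached any earlier vehicle array.

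Treated hearts were also lowest at 336 h. At 10 mg/kg, Ttn was at 12.95, 13.05, 13.02, 12.98 and 13.21 at 6 h, at 13.15, 13.00, 13.02, 13.12 and 13.03 at 24 h, at 12.84, 13.10, 13.10, 12.99 and 13.08 at 168 h, and between 12.46 and 12.92 with a median of 12.69 on the 6 arrays of 336 h. At 80 mg/kg it was at 13.20, 13.03, 13.08, 13.02 and 12.98 at 6 h, at 13.07, 12.98, 13.08, 13.23 and 13.10 at 24 h, between 12.94 and 13.11 with a median of 13.08 at 168 h, and at 12.75, 12.53, 12.70, 12.70 and 12.65 at 336 h. Over all doses, 15 of the 16 arrays of 336 h lay below every one of the 46 earlier arrays, and the groups overlapped by 1 array on each side. In vehicle the difference of 336 h from 6 h was -0.39 (SE 0.07, adjusted p = 0.000553), from 24 h -0.49 (SE 0.07, adjusted p = 1.28e-05) and from 168 h -0.39 (SE 0.07, adjusted p = 0.00228, limma), a level 0.711 to 0.762 times the earlier ones.

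The time test for Ttn gave adjusted p = 1.33e-05 in vehicle, 0.000122 at 10 mg/kg and 3e-05 at 80 mg/kg (limma). Dose made no called difference: averaged over the times, 80 mg/kg differed from vehicle by 0.00 (95% interval -0.06 to 0.07) and 10 mg/kg by -0.01 (-0.08 to 0.06), and the test of whether the effect of 80 mg/kg changed with time gave adjusted p = 0.977. Leaving out any 1 array ended none of these calls. With the array cluster as a block the vehicle differences from 6 and 168 h were -0.34 (adjusted p = 0.0868) and -0.35 (adjusted p = 0.135), the limma test at 10 mg/kg gave adjusted p = 0.114, and the call against 24 h held. On the deposited scale the vehicle differences were -0.30, -0.52 and -0.24 and none was called, nor was the time test of Ttn in vehicle. Fitted on its own groups only, the vehicle difference from 168 h was not called either. Within the cluster that holds all 336 h arrays, Ttn lay at 12.94 to 13.10 on the 5 arrays of other times and at 12.46 to 12.92 on the 16 of 336 h, which did not overlap.

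**Figure D2:**
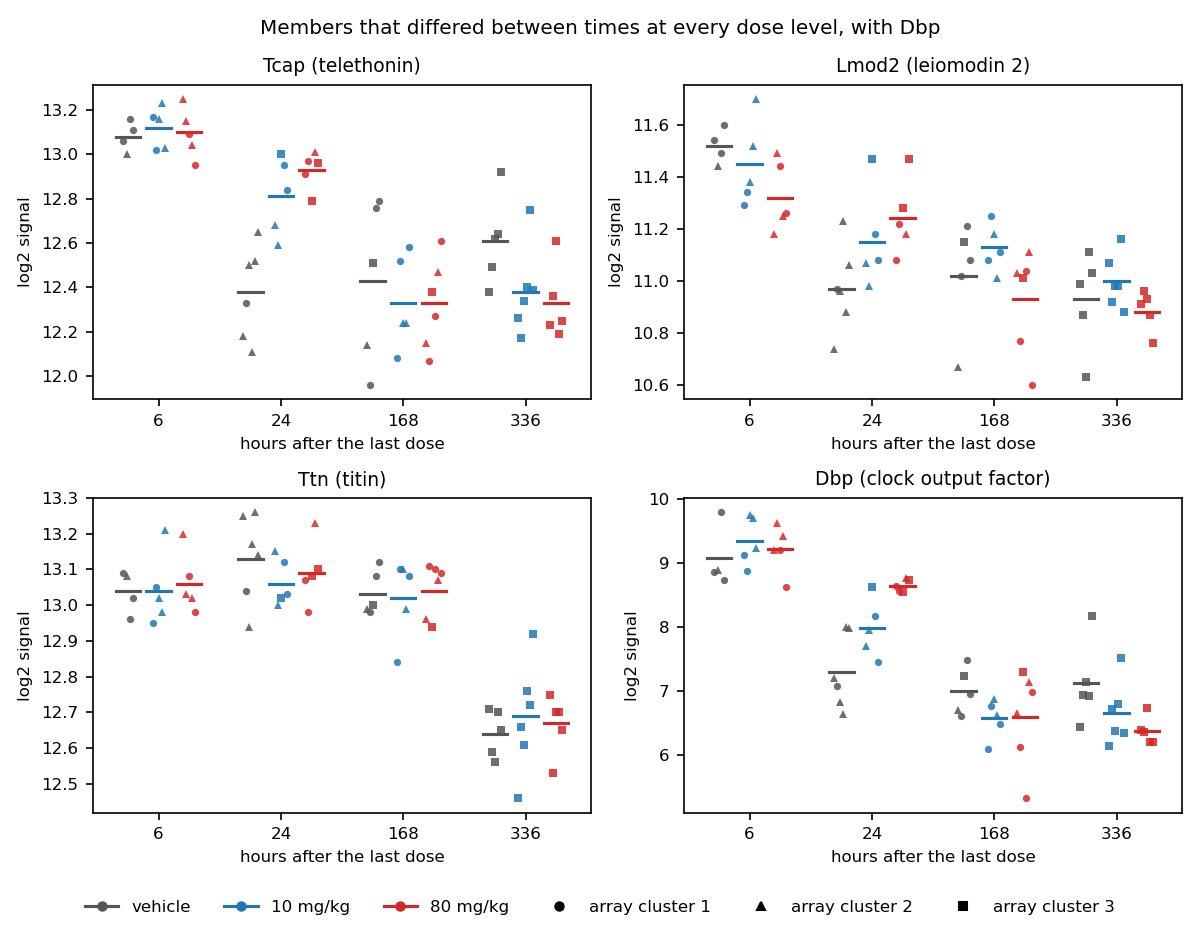
Log2 signal (y axis) of Tcap, Lmod2, Ttn and the clock output gene Dbp at 6, 24, 168 and 336 h after the last dose (x axis), 1 point per array, coloured by dose and shaped by array cluster, with a bar at each group mean. Ttn lies between 12.84 and 13.26 until 168 h and mostly lower at 336 h in all doses, while Tcap, Lmod2 and Dbp are highest at 6 h.

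Among the thick filament genes, Myh7 differed between times in the dosed rats, with its highest means at 168 and 336 h. On its brighter probe set the 80 mg/kg arrays were at 11.79, 11.11, 10.48, 12.09 and 10.26 at 6 h, at 11.80, 10.32, 12.05, 11.71 and 12.49 at 24 h, between 12.18 and 13.11 with a median of 12.93 at 168 h, and at 13.05, 12.86, 11.97, 13.36 and 12.83 at 336 h. The 10 mg/kg arrays were at 10.20, 11.88, 11.68, 12.47 and 11.95 at 6 h, at 12.18, 12.37, 12.54, 10.82 and 11.25 at 24 h, at 12.26, 12.05, 11.61, 13.04 and 12.42 at 168 h, and between 12.51 and 13.57 with a median of 12.93 at 336 h. At both doses the arrays of 168 and 336 h were mostly higher, with overlap.

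In vehicle rats the time test was not called. Their arrays were at 11.71, 11.88, 11.85 and 11.26 at 6 h, between 11.19 and 13.14 with a median of 12.20 at 24 h, at 12.22, 11.40, 12.39, 11.43 and 12.63 at 168 h, and at 12.27, 12.03, 12.05, 11.82 and 12.69 at 336 h. The 4 times overlapped on this set. The limma time test of this probe set gave adjusted p = 0.738 in vehicle, 0.0399 at 10 mg/kg and 0.0023 at 80 mg/kg. The dimmer Myh7 probe set gave 0.136, 0.0312 and 0.000402.

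Whether the time course differed between dosed and vehicle rats was tested directly and was not called: limma's adjusted p was 0.586 at 80 mg/kg and 0.984 at 10 mg/kg for the brighter probe set, and 0.715 and 0.984 for the dimmer. At single times, the brighter set differed from vehicle at 80 mg/kg by -0.53 (SE 0.40) at 6 h, -0.51 (SE 0.37) at 24 h, 0.83 (SE 0.37) at 168 h and 0.64 (SE 0.38) at 336 h, with adjusted p from 0.621 to 0.883. At 10 mg/kg the differences were -0.04, -0.35, 0.26 and 0.81, with adjusted p from 0.892 to 1. The dimmer set differed by -0.89, 0.66, 1.07 and 0.73 at 80 mg/kg, and by 0.47, 0.58, 0.29 and 1.06 at 10 mg/kg, so the probe sets differ in sign at 24 h and, at 10 mg/kg, at 6 h. The dimmer set lay at 5.22 to 7.64 on the 5 raised-actin arrays, below all others (7.70 to 11.66). Vehicle held 2 of these arrays among its 6 of 24 h, and 1 among its 4 of 6 h. Among the dosed arrays where the signs differ, only 10 mg/kg 24 h replicate 1 was such an array. The part of RNA quality in the differing signs was not tested. With 6 and 24 h pooled as early and 168 and 336 h as late, as a description, the brighter set had a median of 11.79 on the 20 early and 12.84 on the 22 late dosed arrays, and of 11.87 and 12.14 on the 10 early and 10 late vehicle arrays. The dimmer set had a median of 8.65 early and 10.34 late in dosed rats, and of 8.69 and 9.59 in vehicle, so on that set the late median was higher in vehicle as well. All 5 raised-actin arrays were early ones, so early and late arrays also differed in RNA quality, and the part of that was not tested.

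The Myh7 calls at 80 mg/kg held without any 1 array and under every alternative tried. Those at 10 mg/kg did not: without the 10 high-Myl7 arrays limma gave adjusted p = 0.147 and 0.12 for the brighter and the dimmer set, and with a block for the array cluster 0.479 and 0.685. Without 10 mg/kg 336 h replicate 4 they were 0.113 and 0.101, and without 10 mg/kg 6 h replicate 1 they were 0.0814 and 0.0522. The call of the brighter set also ended without 10 mg/kg 6 h replicate 3, 24 h replicates 5 or 6, or 336 h replicates 1, 2, 3, 5 or 6 (adjusted p 0.0507 to 0.0933), and that of the dimmer without 24 h replicates 1 or 5 or 336 h replicates 2 or 6 (adjusted p 0.0544 to 0.0768). The arrays with high Myl7 were all from 6 or 24 h and 9 of the 10 were from dosed rats. Their mean on the brighter Myh7 set was 11.47 against 11.83 on the other 20 arrays of 6 and 24 h, and on the dimmer 8.66 against 8.34. Those other 20 arrays held all 5 with the raised actin difference, on which the dimmer set read low, so its means also differ in RNA quality. Without the high-Myl7 arrays both calls at 80 mg/kg held (adjusted p = 0.0343 and 0.00736, limma).

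Myh6, the adult form, was called in no test. Its brighter probe set lay between 13.83 and 14.04 on all 62 arrays, with group means from 13.86 to 13.96. Such values sit near the highest signal the arrays gave. The balance of Myh7 minus Myh6 therefore followed Myh7: its mean was -2.26 (SD 0.28, n = 4), -1.72 (SD 0.80, n = 6), -1.91 (SD 0.57, n = 5) and -1.79 (SD 0.36, n = 5) in vehicle at 6, 24, 168 and 336 h. At 10 mg/kg it was -2.30 (SD 0.84, n = 5), -2.10 (SD 0.75, n = 5), -1.66 (SD 0.53, n = 5) and -0.94 (SD 0.37, n = 6). At 80 mg/kg it was -2.78 (SD 0.78, n = 5), -2.28 (SD 0.86, n = 5), -1.08 (SD 0.33, n = 6) and -1.05 (SD 0.54, n = 5). These are differences of 2 probe sets, whose change between arrays has a meaning and whose level does not, and no test was run on them.

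The dimmer Myh6 probe set lay at 12.47 to 13.26 on 57 arrays and at 6.92 to 11.89 on the 5 arrays with the raised actin 3′ to 5′ difference. The dimmer Myh7 set was at 5.22 to 7.64 on those 5 and at 7.70 to 11.66 on the rest. On the 2 lowest arrays Myh6 was at 6.92 (80 mg/kg 6 h replicate 1) and 7.24 (vehicle 24 h replicate 4). These arrays lie in the groups behind differences from vehicle of 1.35 for this set at 80 mg/kg and 24 h (adjusted p = 0.437) and -0.98 at 6 h (adjusted p = 0.851, limma), and neither was called. The other thick filament genes, the light chains Myl2 and Myl3 and the myosin binding protein Mybpc3, were called in no test, and on their brightest probe sets the arrays spanned 13.54 to 13.83, 13.45 to 13.83 and 12.06 to 12.80.

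**Figure D3:**
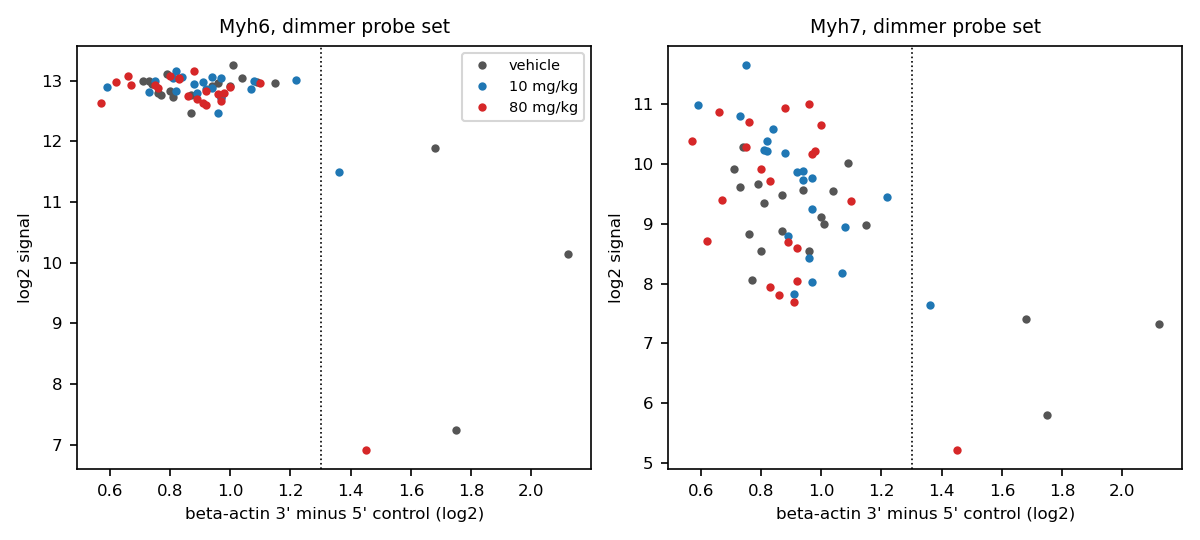
Log2 signal (y axis) of the dimmer Myh6 and the dimmer Myh7 probe set against the 3′ minus 5′ difference of the beta-actin control (x axis, log2), 1 point per array, coloured by dose, with a dotted line at 1.3. The 5 arrays to the right of the line hold Myh6 values of 6.92 to 11.89, below all 57 others.

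In the thin filament, Lmod2 was highest at 6 h. Lmod2 encodes leiomodin 2, which nucleates actin and sets thin filament length in heart muscle. Vehicle arrays were at 11.54, 11.44, 11.49 and 11.60 at 6 h, between 10.74 and 11.23 with a median of 10.97 at 24 h, at 10.67, 11.02, 11.15, 11.21 and 11.08 at 168 h, and at 10.99, 10.87, 10.63, 11.11 and 11.03 at 336 h. The 4 arrays of 6 h lay above all 16 later vehicle arrays. The differences from 6 h were -0.54 (SE 0.10, adjusted p = 0.00242), -0.49 (SE 0.11, adjusted p = 0.0222) and -0.59 (SE 0.11, adjusted p = 0.000477, limma) at 24, 168 and 336 h.

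At 10 mg/kg Lmod2 was at 11.29, 11.34, 11.38, 11.52 and 11.70 at 6 h, at 11.07, 10.98, 11.47, 11.18 and 11.08 at 24 h, at 11.08, 11.25, 11.18, 11.01 and 11.11 at 168 h, and between 10.88 and 11.16 with a median of 10.98 at 336 h. At 80 mg/kg it was at 11.18, 11.49, 11.44, 11.25 and 11.26 at 6 h, at 11.08, 11.22, 11.28, 11.18 and 11.47 at 24 h, between 10.60 and 11.11 with a median of 11.02 at 168 h, and at 10.91, 10.96, 10.93, 10.87 and 10.76 at 336 h. At 80 mg/kg every array of 168 or 336 h lay below every array of 6 h, and the 24 h arrays overlapped those of 6 h. The limma time test gave adjusted p = 0.000789, 0.0107 and 0.00254 in vehicle, 10 mg/kg and 80 mg/kg. No dose difference was called: at 24 h Lmod2 was 0.27 (SE 0.10, adjusted p = 0.293) above vehicle at 80 mg/kg and 0.18 (SE 0.10, adjusted p = 0.858) at 10 mg/kg. The call at 168 h ended without vehicle 6 h replicates 1 or 6 or vehicle 168 h replicates 1 or 2 (adjusted p 0.0625 to 0.125), and the time call at 10 mg/kg without its 6 h replicate 5 (0.0568) or the high-Myl7 arrays (0.466). With each array scaled by its median the vehicle 24 h difference was -0.38 (adjusted p = 0.249) and the 168 h difference -0.49 (0.345), and the time calls ended at 10 mg/kg (0.259) and 80 mg/kg (0.146). Fitted on their own groups only, the vehicle differences at 24 and 168 h were not called (0.276 and 0.744).

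Acta1, the skeletal actin, fell at 336 h in vehicle, while its time test was not called at 10 mg/kg (adjusted p = 0.901) or 80 mg/kg (0.89, limma). Vehicle arrays were at 13.05, 13.67, 13.23 and 13.00 at 6 h, between 13.01 and 13.85 with a median of 13.09 at 24 h, at 13.27, 12.75, 12.91, 13.26 and 13.16 at 168 h, and at 12.45, 13.44, 11.46, 12.68 and 12.57 at 336 h. Of the 5 late arrays 4 were below all arrays of 6, 24 and 168 h, and replicate 3, at 13.44, was not. The difference was -0.71 (SE 0.22, adjusted p = 0.033) from 6 h and -0.71 (SE 0.20, adjusted p = 0.0283, limma) from 24 h.

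At 336 h Acta1 lay between 12.73 and 13.56 with a median of 13.14 at 10 mg/kg and at 13.66, 13.11, 13.05, 12.94 and 13.46 at 80 mg/kg. Both overlapped vehicle through its replicate 3. Against vehicle it was 0.59 (SE 0.20, adjusted p = 1) and 0.72 (SE 0.21, 95% interval 0.30 to 1.15, adjusted p = 0.197) higher there, and neither was called with limma. The test of an effect differing between times gave adjusted p = 0.984 and 0.734. Without vehicle 336 h replicate 3 the 80 mg/kg difference was 0.95 (adjusted p = 0.0171). The fall in vehicle depended on other arrays: it was -0.45 from 6 h (adjusted p = 0.182) and -0.44 from 24 h (0.192) without vehicle 336 h replicate 4, the lowest. Calls from 6 h also ended without vehicle 6 h replicates 3, 5 or 6 or 336 h replicate 2 (0.0515 to 0.119), and from 24 h without vehicle 24 h replicates 1 or 5 or 336 h replicates 2 or 6 (0.0504 to 0.102). With the array cluster as a block it was -0.71 (adjusted p = 0.439) and -0.62 (0.69). Acta1's time test in vehicle gave adjusted p = 0.0481 (limma) and was lost without vehicle 6 h replicates 3, 5 or 6, 24 h replicates 1, 4, 5 or 6, 168 h replicates 2, 4 or 5, or 336 h replicates 2, 4, 5 or 6 (0.0501 to 0.31).

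No troponin gene was called, on probe sets that lie near the ends of the measured range. Fetal Tnni1 was near the low end, between 5.30 and 6.88 on its brighter probe set, and adult Tnni3 between 13.50 and 13.80 on all arrays, near the top where a change is compressed. No test of their balance was run. With the times averaged, Tnni1 differed from vehicle by -0.08 at 80 mg/kg and -0.06 at 10 mg/kg, and Tnni3 by -0.01 and 0.02, with limma adjusted p of 0.898, 0.998, 0.948 and 0.998. Tnnt2 and Tnnc1, the genes of troponins T and C of the heart, spanned 13.96 to 14.11 and 13.64 to 13.83 and were called in no test. Neither were the tropomyosins Tpm1 and Tpm2 nor the pointed-end cap Tmod1, on any of their 10 kept probe sets.

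**Figure D4:**
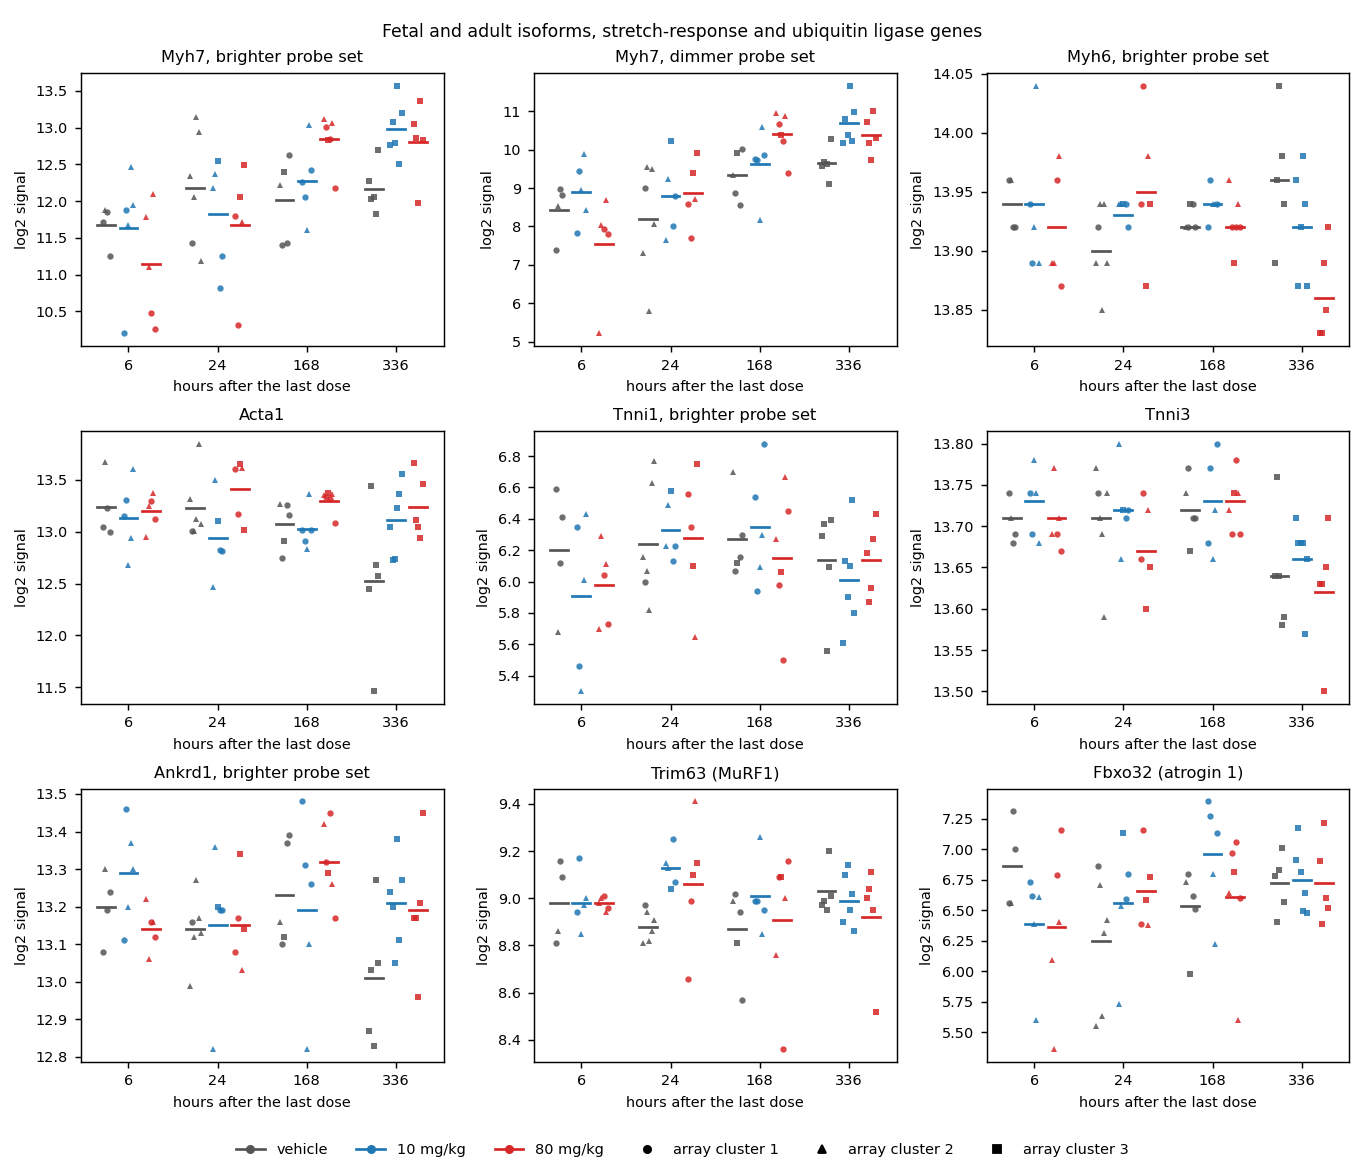
Log2 signal (y axis) of the fetal and adult isoform genes Myh7, Myh6, Acta1, Tnni1 and Tnni3, the stretch-response gene Ankrd1 and the ubiquitin ligase genes Trim63 and Fbxo32 by hours after the last dose (x axis), 1 point per array, coloured by dose and shaped by array cluster, with a bar at each group mean. Myh7 means at 80 mg/kg go from 11.14 at 6 h to 12.81 at 336 h, and Acta1 has its lowest mean, 12.52, in vehicle at 336 h.

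At the Z-disc, Tcap held the only dose call among the members. At 24 h the 80 mg/kg arrays were at 12.91, 12.97, 12.79, 13.01 and 12.96, the 10 mg/kg arrays at 12.68, 12.59, 13.00, 12.95 and 12.84, and the 6 vehicle arrays between 12.11 and 12.65 with a median of 12.41. All 80 mg/kg arrays lay above all vehicle arrays, and 1 of the 5 at 10 mg/kg overlapped vehicle. The difference from vehicle was 0.55 at 80 mg/kg (SE 0.12, 95% interval 0.31 to 0.79, 1.46-fold, adjusted p = 0.0253) and 0.43 at 10 mg/kg (SE 0.12, adjusted p = 0.469, limma). The doses differed by 0.12 (95% interval -0.13 to 0.37).

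That call is a narrow one. It ended without vehicle 24 h replicates 1 (0.51, adjusted p = 0.104) or 4 (0.49, 0.11) and without 80 mg/kg 24 h replicates 2, 3, 5 or 6 (0.53 to 0.55, 0.0554 to 0.0863). It ended in 8 of the other alternatives, where the difference stayed positive and the limma adjusted p ran from 0.0511 with no filter on low signals to 0.444 on the deposited scale, where the difference was 0.25. With median scaling it was 0.38 (adjusted p = 0.101), beside a shift of -0.17 in the median of all probe sets. Without the 5 raised-actin arrays it was 0.43 (adjusted p = 0.419). Without the high-Myl7 arrays, which were 3 of the 5 at 80 mg/kg, it was 0.58 (adjusted p = 0.218), and 0.61 and 0.62 within the clusters where both groups had arrays, on 2 and 1 against 1 and 5 arrays. The hexokinase 3′ minus 5′ difference lay at 1.87 to 6.08 on the vehicle arrays of 24 h and at 1.49 to 2.59 on those of 80 mg/kg, and 5 of 6 against 1 of 5 of these arrays were in the second cluster. With the cluster as a block the Tcap difference was 0.49 (adjusted p = 0.202). Of 6 adipocyte markers 2 were measured, and Fabp4, a known target of PPAR gamma, was 0.73 higher at 80 mg/kg then (adjusted p = 0.00374, limma). The other, Cfd, was not called and lay below vehicle, as the median difference of the 2 was 0.19. The summed signal of the 2 was 4780 to 7930 against 3410 to 4340 in vehicle. The 3 measured fast skeletal muscle markers had a summed signal of 5030 to 6150 at 80 mg/kg and 24 h. It was 4520 to 6360 at 10 mg/kg and 3350 to 4750 in vehicle then, and 0 of the 3 were called. The part of these in the Tcap difference was not tested. The test of an 80 mg/kg effect differing between times gave Tcap adjusted p = 0.109, and 0.0352 without vehicle 168 h replicate 2.

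Over time Tcap was highest at 6 h. Vehicle arrays were at 13.06, 13.00, 13.16 and 13.11 at 6 h, at 12.14, 11.96, 12.51, 12.76 and 12.79 at 168 h, and at 12.38, 12.49, 12.62, 12.64 and 12.92 at 336 h. All 4 arrays of 6 h lay above the 16 later ones. Vehicle differences from 6 h were -0.70 (SE 0.13, adjusted p = 0.00201) at 24 h, -0.65 (SE 0.13, adjusted p = 0.0114) at 168 h and -0.47 (SE 0.13, adjusted p = 0.018, limma) at 336 h.

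The dosed rats were also highest at 6 h. At 10 mg/kg Tcap was at 13.17, 13.02, 13.16, 13.23 and 13.03 at 6 h, at 12.08, 12.52, 12.24, 12.24 and 12.58 at 168 h, and between 12.17 and 12.75 with a median of 12.36 at 336 h. At 80 mg/kg it was at 13.25, 13.15, 13.09, 13.04 and 12.95 at 6 h, between 12.07 and 12.61 with a median of 12.32 at 168 h, and at 12.23, 12.36, 12.61, 12.19 and 12.25 at 336 h. At 6 h all doses overlapped, and limma's time test gave adjusted p = 0.00147, 1.9e-05 and 2.34e-06 from vehicle to 80 mg/kg. The vehicle call at 168 h ended without its replicates 1 (-0.57, adjusted p = 0.0571) or 2 (-0.53, 0.0856), and that at 336 h without vehicle 6 h replicate 6 (-0.46, 0.0574) or 336 h replicate 2 (-0.41, 0.0531). Without the 5 raised-actin arrays the 24 h difference was -0.59 (adjusted p = 0.155), and without the high-Myl7 arrays those at 168 and 336 h were -0.64 (0.0923) and -0.46 (0.0852). With each array scaled by its median the differences at 24 and 168 h were -0.62 (0.0527) and -0.68 (0.0636), and fitted on own groups those at 24, 168 and 336 h had adjusted p of 0.249, 0.834 and 0.0595. On the deposited scale they were -0.50 (0.661), -0.75 (1) and -0.37 (0.632). With the cluster as a block the 24 and 168 h calls held (-0.66 at both, 0.0082 and 0.00839), and that at 336 h did not (-0.52, 0.253). The vehicle arrays of 6 h had a hexokinase difference of 1.5 to 2.80, and 1 of 4 was in the second cluster.

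Clock gene levels ran beside these. Dbp, a transcription factor under direct control of the circadian clock that was chosen after its values were seen, had group means of 9.08, 7.29, 7.0 and 7.12 in vehicle at 6, 24, 168 and 336 h, of 9.34, 7.98, 6.57 and 6.65 at 10 mg/kg, and of 9.22, 8.65, 6.59 and 6.37 at 80 mg/kg. Tcap means in the same order were 13.08, 12.38, 12.43 and 12.61, then 13.12, 12.81, 12.33 and 12.38, then 13.10, 12.93, 12.33 and 12.33. At 24 h Dbp was 1.36 above vehicle at 80 mg/kg (SE 0.28, adjusted p = 0.0187) and 0.69 at 10 mg/kg (SE 0.28, adjusted p = 0.848, limma). The core clock genes Per2 and Bmal1 differed there by 1.03 and -1.01 at 80 mg/kg (adjusted p = 0.267 and 0.101). The times 24, 168 and 336 h are whole days after the last dose and 6 h is not, so time since dosing and clock time cannot be told apart between 6 h and the rest, and the part of the clock in the Tcap and Lmod2 levels was not tested.

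Ldb3, which encodes the Z-disc protein ZASP, gave opposite signs on the 4 of its 6 probe sets that passed the filter on low values, which are ordered here by brightness. The brightest was at 11.95, 11.91, 11.68 and 11.66 in vehicle at 6 h and at 11.49, 11.42, 11.23, 11.50 and 11.47 at 336 h. The second was at 10.88, 11.33, 10.96 and 10.48 at 6 h and at 11.72, 11.83, 11.74, 11.78 and 11.74 at 336 h. The groups did not overlap on either set, and the brightest fell by 0.38 (SE 0.11, adjusted p = 0.0253) while the second rose by 0.85 (SE 0.24, adjusted p = 0.0176, limma).

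The third set was between 10.15 and 11.11 with a median of 10.58 at 24 h and at 11.35, 11.42, 11.30, 11.52 and 11.33 at 336 h, and the dimmest between 9.47 and 10.96 with a median of 9.76 and at 11.38, 11.44, 11.40, 11.54 and 11.42. All their late arrays lay above all of 24 h. Against 24 h the brightest, between 11.56 and 12.08 there, fell by 0.43 (adjusted p = 0.00756), and the third and the dimmest rose by 0.79 (adjusted p = 0.0381) and 1.44 (adjusted p = 0.00496, limma). Of the 6 vehicle arrays of 24 h, 2 had the raised actin difference. On the 5 arrays with it the third set lay at 10.15 to 10.93, against 10.32 to 11.69 on the rest. The dimmest lay at 9.32 to 11.19 on them, against 9.50 to 11.63. Probe sets of 1 gene can read different transcript ends or splice forms, and the files do not say which. With the cluster as a block the differences were -0.18 and 0.19 from 6 h and -0.08, 0.11 and 0.08 from 24 h, none called. Within the cluster of the 336 h arrays the 4 sets differed between 336 h and other times by -0.05, 0.15, -0.22 and -0.13. The call of the brightest from 6 h ended without vehicle 6 h replicates 1 or 3 or 336 h replicate 4 (0.0642 to 0.0875), that of the second without vehicle 6 h replicate 6 (0.71, 0.103), and that of the third without 9 of the 11 arrays compared (vehicle 24 h replicates 1, 4, 5 or 6 or any of 336 h).

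**Figure D5:**
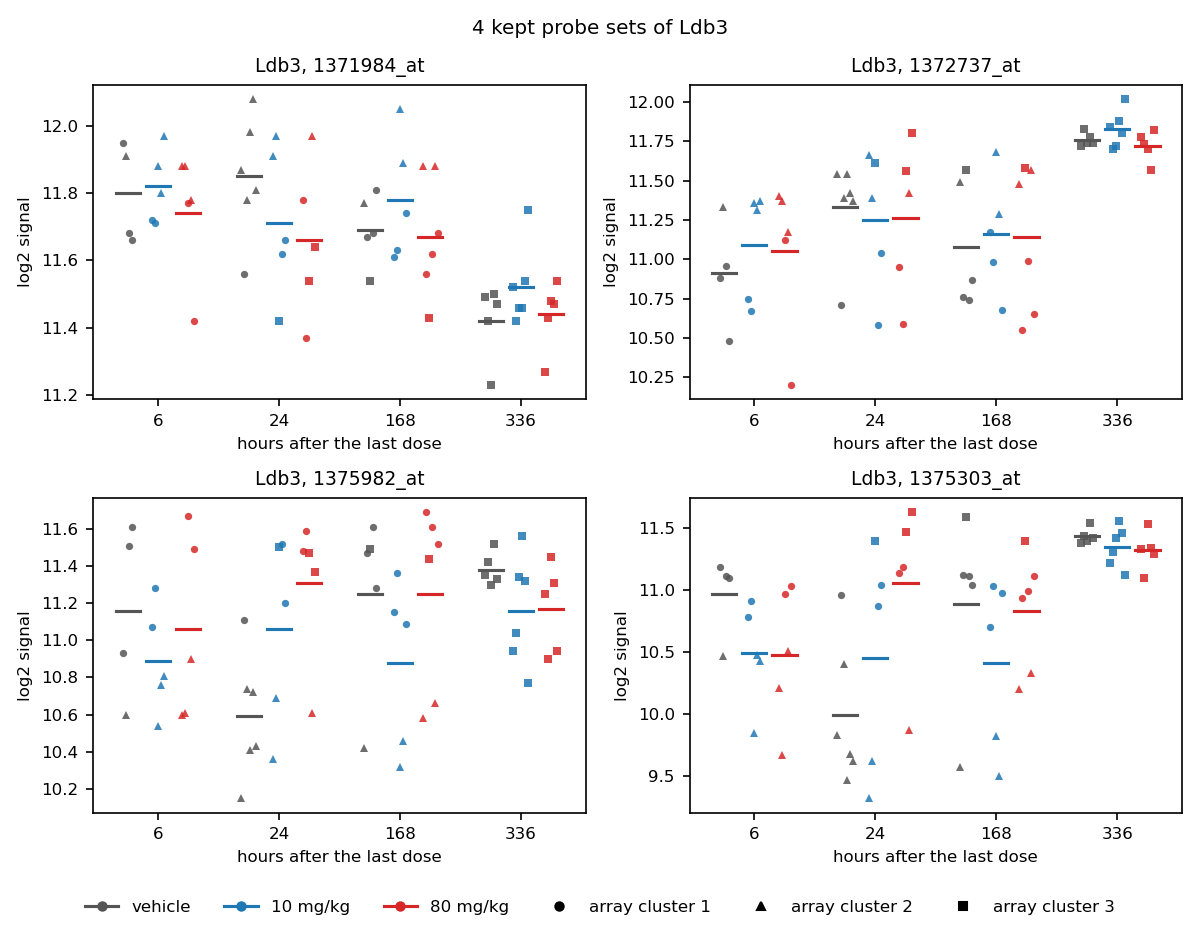
Log2 signal (y axis) of the 4 kept Ldb3 probe sets by hours after the last dose (x axis), 1 point per array, coloured by dose and shaped by array cluster, with a bar at each group mean. The first set is lower at 336 h and the other 3 higher in vehicle, and the square points (array cluster 3) of earlier times lie near those of 336 h.

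Synpo2l, an actin-associated protein of the Z-disc, was at 11.34, 10.83, 10.95 and 10.83 at 6 h, between 10.61 and 11.30 with a median of 10.93 at 24 h, at 10.62, 10.33, 10.65, 10.61 and 10.71 at 168 h, and at 10.62, 10.38, 10.35, 10.73 and 10.54 at 336 h. Its arrays of 336 h were below all of 6 h and overlapped those of 24 h. The differences were -0.46 (SE 0.13, adjusted p = 0.0163) and -0.43 (SE 0.11, adjusted p = 0.0171, limma), and they lost the call without vehicle 6 h replicate 1 (-0.34, 0.102) and without vehicle 24 h replicates 1 or 5 or 336 h replicates 3 or 4 (-0.40 to -0.37, 0.0554 to 0.0644). With the cluster as a block they were -0.52 (adjusted p = 0.198) and -0.42 (0.53), without the 5 raised-actin arrays -0.34 (0.0766) and -0.33 (0.113), and on the deposited scale -0.33 (0.77) and -0.56 (0.618).

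Actn2, the alpha-actinin that crosslinks thin filaments at the Z-disc, was at 12.82, 13.07, 12.97 and 12.61 in vehicle at 6 h and at 13.19, 13.27, 13.28, 13.26 and 13.18 at 336 h. The groups did not overlap and differed by 0.37 (SE 0.12, adjusted p = 0.0455, limma). The call ended without any array except vehicle 6 h replicate 3, and with the cluster as a block the difference was 0.01. The dimmer set of the actin crosslinker Flnc was between 6.80 and 8.38 with a median of 7.94 at 24 h and at 8.14, 8.65, 8.29, 8.38 and 8.31 at 336 h, overlapping. It differed by 0.65 (SE 0.20, adjusted p = 0.0466, limma). Without the 5 raised-actin arrays this was 0.25 (adjusted p = 0.319), the call ended without any array except vehicle 24 h replicates 2, 3 or 6, and the brighter Flnc set was not called. The remaining Z-disc genes Myoz2, Csrp3, Pdlim1, Pdlim3 and Pdlim5 were called in no test.

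In the M-band, Myom2, which crosslinks thick filaments, was called over time at 80 mg/kg (adjusted p = 0.0255, limma). Its arrays there were at 13.11, 13.05, 12.96, 13.07 and 12.89 at 6 h, at 13.20, 13.14, 13.04, 13.16 and 13.21 at 24 h, between 13.16 and 13.33 with a median of 13.24 at 168 h, and at 13.20, 13.16, 13.06, 13.24 and 13.20 at 336 h. All arrays of 168 h lay above all of 6 h. The call ended without 80 mg/kg 6 h replicates 4 (0.0741) or 6 (0.107), 168 h replicate 5 (0.0502), or the high-Myl7 arrays (0.128), and on the deposited scale (0.402), and Myom1 was not called.

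Smyd1, a methyltransferase that assists myosin folding, rose in vehicle. It was at 8.38, 8.56, 8.33 and 8.13 at 6 h and at 8.78, 9.01, 8.63, 8.60 and 8.51 at 336 h. The lowest late array was below the highest early one, and the other 4 were above all early arrays. The difference was 0.36 (SE 0.10, adjusted p = 0.0187, limma), and it was 0.28 without vehicle 6 h replicate 6 (0.12), without vehicle 336 h replicate 3 (0.0777) or without the high-Myl7 arrays (0.135). With the cluster as a block it was 0.21 (0.658), and with median scaling 0.35 (0.172). Its partner Unc45b, the intermediate filament gene Des, its chaperone Cryab and the intercalated disc genes Xirp1 and Nrap were called in no test.

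Genes of muscle protein breakdown and stretch were called in no test. Trim63 (MuRF1), a ubiquitin ligase of the sarcomere, lay between 8.36 and 9.41 on all arrays with group means from 8.87 to 9.13, and Fbxo32 (atrogin 1) between 5.36 and 7.39 with group means from 6.25 to 6.96. Trim54 lay between 10.31 and 11.04. Ankrd1, a titin-binding stretch-response gene, lay between 12.82 and 13.48 with group means from 13.01 to 13.32. With the times averaged, 80 mg/kg differed from vehicle by 0.03 for Trim63 and 0.06 for Ankrd1. For Fbxo32 the average was 0.00, over differences of opposite sign: -0.50 (SE 0.29) at 6 h, 0.41 (SE 0.26) at 24 h, 0.08 (SE 0.26) at 168 h and 0.01 (SE 0.28) at 336 h, with limma adjusted p from 0.587 to 1.

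Genes outside the list that share its structures or control it were called with time and not with dose. Of 60 related thick, thin and Z-disc genes 46 were measured, and of 25 regulators 23, and in every comparison of doses or with vehicle limma called 0 of either, with 0 to 6 related genes and 0 to 4 regulators under an unadjusted p of 0.05. Of all probe sets 3.59% to 11.1% were under that p in these comparisons. The highest counts, 6 of 46 and 4 of 23, were at 80 mg/kg and 24 h, where the share of all was 11.1%. In vehicle at 336 against 6 h, 8 of the 46 related genes were called, 4 higher and 4 lower, where 9.70% of all probe sets were called, with a list median of -0.09 against -0.003 over all probe sets. Among them the adhesion protein gene Vcl fell by 0.98 (SE 0.23, adjusted p = 0.00563), and of the genes for the 2 subunits of the actin cap, Capza2 fell by 0.67 (adjusted p = 0.00311) while Capzb rose by 0.43 (adjusted p = 0.00602, limma). Pdlim4 and the small heat shock protein gene Hspb2 rose by 0.66 (adjusted p = 0.0353) and 0.56 (0.00619), and Trim72 fell by 0.31 (0.0419).

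Of the 23 regulators 6 were called between 336 and 6 h in vehicle, all higher, beside the same 9.70% of all probe sets, with a list median of 0.08. They were the cardiac factors Nkx2-5 (1.04, adjusted p = 0.00548) and Gata4 (1.01, 0.0133), the thyroid hormone receptor gene Thra (0.95, 0.00743), the calcineurin inhibitor gene Rcan1 (0.53, 0.0218), the M-CAT factor Tead1 (0.51, 0.00962) and serum response factor Srf (0.34, 0.0228, limma). At 336 against 24 h Klf15 (0.65, adjusted p = 0.00646) and Tead1 (0.43, 0.0242) rose and Thrb fell by 0.54 (0.0165, limma). These comparisons carry the same overlap of time and array cluster as those of the members, and markers of the other cell types given above were called beside them. In whole tissue, fewer cells of a type and less RNA per cell cannot be told apart.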

How the data were processed

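RNA of cardiac muscle was read on an Affymetrix rat array, 1 array per sample. The authors' deposited values are linear intensity signals, 1 for each probe set of an array. They were made with GCOS and MAS5, per the submitters' processing notes, and versions are not given here. Their scale differed between arrays, with medians from 31.15 to 86.94, so log2 intensity was quantile normalized. The 57 control sets were left out, and sets with a mean at or above the 40th percentile (5.03) were kept. Gene names came from GEO's platform annotation, matched to RefSeq.

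A mean for each of 12 groups was fitted over all kept sets with limma 3.58.1 (R 4.3.3). Differences were tested with moderated t tests, which gave two-sided p-values. The tests over the 4 times, and of an effect differing between times, were moderated F tests. All p-values were adjusted by Benjamini-Hochberg over the 18625 sets of each of 25 tests, called under 0.05, and the fit was tested on simulated data. The number of arrays limits precision. Replicate numbers did not pair arrays. A gene is described by its brightest kept set. Array values were given for Ttn, the isoform genes, Ankrd1, Trim63 and Fbxo32 (the last genes as ranges and a plot) and for every called member, and up to 6 called genes of a related list per vehicle comparison. Members, lists and rules were chosen with earlier results of these data known, and Dbp, Per2 and Bmal1 after their values were seen. Alternatives covered scaling, filter, array cluster, replicate block, arrays with high Myl7 or actin difference, own groups, averaged probe sets and each array left out. The 5-array actin alternative was chosen after seeing the data, because the planned rule left out 1 array.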

Additional observations from a re-analysis of the deposited data

Results flagged for a closer look

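Among the 28 probe sets with array values or ranges in the text, 336 groups of 4 to 6 arrays were tested for an array far from the rest, and 30 groups held one. Chance gives about 1 in 20 groups. No explanation was weighed.

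In Acta1, vehicle 24 h replicate 5 was at 13.85 against 13.01 to 13.32 in the others, and 80 mg/kg 168 h replicate 6 at 13.08 against 13.32 to 13.37. On the dimmer Myh7 set 80 mg/kg 6 h replicate 1 was at 5.22 against 7.81 to 8.70, and on the brighter 80 mg/kg 168 h replicate 6 at 12.18 against 12.83 to 13.11. On the brighter Myh6 set 10 mg/kg 24 h replicate 6 was at 13.92 with the others at 13.94, a gap of little size. The dimmer Myh6 set was at 11.89 on vehicle 6 h replicate 1 against 12.80 to 12.96, at 12.47 on 10 mg/kg 6 h replicate 5 against 12.87 to 13.01, at 11.49 on 10 mg/kg 24 h replicate 1 against 12.73 to 13.05, and at 6.92 on 80 mg/kg 6 h replicate 1 against 12.70 to 13.02. All but the second of these arrays had the raised actin difference. Myl2 was at 13.81 on vehicle 24 h replicate 2 against 13.60 to 13.67. Tnnt2 took tied values at the top of the scale, and 1 array stood apart in 4 groups: vehicle 6 h replicate 5 and 80 mg/kg 6 h replicate 6 at 14.11 against 14.04, and vehicle 24 h replicate 2 and vehicle 336 h replicate 5 at 14.04 against 14.11. Where the other arrays are tied, as here and on the brighter Myh6 set, any gap is flagged whatever its size. The chance rate given above does not hold for such groups. Synpo2l was low on vehicle 168 h replicate 2 (10.33 against 10.61 to 10.71), 80 mg/kg 6 h replicate 6 (10.54 against 10.80 to 10.90) and 80 mg/kg 24 h replicate 3 (10.36 against 10.86 to 11.02).

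The Ldb3 probe sets held 8 of the 30. The brightest was at 11.42 on 80 mg/kg 6 h replicate 6 against 11.77 to 11.88. The second was at 10.71 on vehicle 24 h replicate 2 against 11.37 to 11.54, and at 10.20 on 80 mg/kg 6 h replicate 6 against 11.12 to 11.40. The third was at 10.42 on vehicle 168 h replicate 1 against 11.28 to 11.61, and at 10.61 on 80 mg/kg 24 h replicate 5 against 11.37 to 11.59. The fourth was at 10.47 on vehicle 6 h replicate 3 against 11.10 to 11.19, at 9.57 on vehicle 168 h replicate 1 against 11.04 to 11.59, and at 9.87 on 80 mg/kg 24 h replicate 5 against 11.14 to 11.63.

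Myom2 was at 13.09 on vehicle 336 h replicate 4 against 13.17 to 13.19, and Tnni3 at 13.57 on 10 mg/kg 336 h replicate 5 against 13.66 to 13.71. Trim63 was at 9.20 on vehicle 336 h replicate 5 against 8.95 to 9.01, and at 8.52 on 80 mg/kg 336 h replicate 5 against 8.95 to 9.11. Fbxo32 was at 5.60 on 80 mg/kg 168 h replicate 5 against 6.60 to 7.06.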

How the results depend on the processing

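The 1 member called at 80 mg/kg and 24 h became 0 on the deposited scale, with median scaling, with no filter, with a block for the array cluster, without the arrays of high Myl7, without the array of the widest actin gap, without the 5 raised-actin arrays (chosen after seeing the data) and when fitted on its own groups only. In vehicle, the 2 called at 24 against 6 h became 0 on the deposited scale, with median scaling and on own groups, and 1 without the 5 arrays. The 2 at 168 against 6 h became 0 on the deposited scale, with median scaling, without the high-Myl7 arrays and on own groups, and 1 with no filter and without the 5 arrays. The 9 at 336 against 6 h became 0 on the deposited scale, 4 with median scaling, 1 with the cluster block, 4 without the high-Myl7 arrays and 3 on own groups. The 7 at 336 against 24 h became 1, 4, 1, 3, 2 and 4 on the deposited scale, with no filter, with the cluster block, without the widest actin gap, without the 5 arrays and on own groups. The 1 at 336 against 168 h became 0 on the deposited scale, with the cluster block and on own groups, and 4 with the replicate block. The 9 over time in vehicle became 0 on the deposited scale, 3 with the cluster block, 5 without the 5 arrays and 5 on own groups. The 5 over time at 10 mg/kg became 2 with median scaling, 3 with no filter, 2 with the cluster block, 2 without the high-Myl7 arrays and 3 on own groups. Own groups leave fewer samples to estimate the spread, and for the other settings the cause was not tested. Averaging a gene's probe sets turned the brightest Ldb3 set's differences of 336 h from 6 and 24 h to 0.29 and 0.56.

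Leaving out 1 array gave 0 to 1 members at 80 mg/kg and 24 h, 0 to 1 at 336 h and 0 to 1 for its effect differing between times. In vehicle it gave 0 to 2 at 168 against 6 h, 4 to 9 at 336 against 6 h, 3 to 7 at 336 against 24 h and 1 to 4 at 336 against 168 h. The time tests gave 6 to 13 members in vehicle, 3 to 7 at 10 mg/kg and 5 to 7 at 80 mg/kg.

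Arrays of 1 replicate number did not deviate together (mean correlation 0.02, against -0.004 between numbers), and 12 of 62 best matched their own number. The replicate block moved the count for 336 against 168 h and ended the Flnc call (0.59, adjusted p = 0.0617, limma), and no other named call. Signals near the top of the scale compress changes.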
